A study of Mus musculus with 70 samples.

Results

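The 10 genes described here encode selenoproteins and other antioxidant and iron-storage proteins: Gpx1, Gpx3, Gpx4, Selenop, Prdx1, Prdx5, Sod1, Hmox1, Fth1 and Ftl1. They were taken by gene symbol from 5 count tables that together list 25806 distinct gene IDs, and each of the 10 had 1 row in every table. The set was put together because Gpx3 and Selenop changed in opposite directions, so the values of those 2 genes are given as a description without any test. The other 8 genes were tested within fits across all genes of a table.

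Selenoproteins carry selenocysteine, which the ribosome inserts at a stop codon with the help of an element in the mRNA. Glutathione peroxidases use it to reduce peroxides, and selenoprotein P, the product of Selenop, is a secreted protein that carries selenium between cells, and its transcript is known from resting microglia. Ferritin, assembled from heavy chains (Fth1) and light chains (Ftl1), stores iron in a form that cannot drive radical chemistry, and iron-laden or activated microglia are known for it.

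The study profiled mouse brain microglia by CEL-Seq2, a method that counts tags near the 3' end of transcripts, in 70 libraries of 500 sorted cells each. Cre+ mice carried 1 allele of Cx3cr1CreERT2, a tamoxifen-activated Cre recombinase knocked into the microglial receptor gene Cx3cr1, from either of 2 lines (named Littman and Jung). Cells were sorted as CD11b+ CD45+ Ly6G- CD206-. Cre driven from Cx3cr1 is also present in other mononuclear phagocytes, and every Cre+ mouse has lost 1 copy of Cx3cr1 itself.

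The groups were as follows. The postnatal table held Littman mice given tamoxifen, 5 Cre- (Cx3cr1 wild type) and 5 Cre+, and Jung mice that also carried 1 Rosa26YFP allele, 5 given oil and 4 given tamoxifen. The vehicle and UC2288 table held postnatal Littman mice: Cre+ with vehicle and oil (4), Cre- with vehicle and tamoxifen (5), Cre+ with vehicle and tamoxifen (4), and Cre- (3) and Cre+ (5) with tamoxifen and UC2288. UC2288 was used to inhibit CDKN1A, the cell cycle inhibitor p21, and was injected at 100 mg per kg. The adult Littman table held Cre+ mice with oil (4) or tamoxifen (3). The BLZ-titled table held Cre+ Littman mice given BLZ945 with oil (3) or tamoxifen (4), and Jung mice with 1 Rosa26YFP allele, with oil (4) or tamoxifen (4). BLZ945, which is known to block the receptor CSF1R, was given to adults at 100 mg per kg. The last table, titled adult Jung, held Jung mice with oil (4) or tamoxifen (4). The treatment labels place BLZ945 in the adult-titled Jung mice and not in the BLZ-titled Jung mice, against their titles. Groups here follow the titles, and which Jung set received BLZ945 is named where a result depends on it. Adults received 4 mg of tamoxifen repeatedly, and pups 0.1 mg on days 1 and 3 or 0.2 mg on days 5 and 7. Pups were sampled at 8 or 14 days and adults at 6 to 15 weeks, but the labels do not say which pup age or injection days belong to which library. Nor do they say whether libraries of a group came from separate mice, so p-values measure the spread between libraries, which may be partly technical.

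Library totals ran from 116083 to 450461 counts, and 1 count was worth between 2.22 and 8.61 CPM, the usual per-library scale of counts, computed here from column totals. Cx3cr1 was below its Cre- level in every Cre+ library of the postnatal and the vehicle and UC2288 tables. Cdkn1a was higher in tamoxifen-treated Littman Cre+ pups, at 284 ± 86.7 CPM (SD, n = 5) against 55.4 ± 9.07 in Cre- (n = 5; log2 fold change 2.40, edgeR adjusted p = 2.72e-14). The microglia markers Csf1r, P2ry12, Sall1, Tmem119 and Cx3cr1 had counts in every group. P2ry12 was lower where Cre+ Littman pups had received tamoxifen, at 3043 ± 781 CPM against 4631 ± 467 in postnatal Cre- and at 866 ± 170 against 3233 ± 298 in vehicle Cre- (log2 fold changes -0.57 and -2.09, edgeR adjusted p 3.67e-05 and 1.72e-05). UC2288 Cre+ replicate 3 stood apart from its group, as it had 1803 CPM of Cx3cr1, where the other 4 of its group had 651 to 917. Its Cp was at 0 counts where the others had 7 to 18, although its Cdkn1a (499 CPM) was close to the next library of the group (502). Differences of Gpx3, Selenop, Fth1 and Prdx5 that are reported for this group are given with and without it. Other values of the group include it. Vehicle oil Cre+ replicate 4 was high in 3 members: it had 1725 CPM of Selenop, 478 of Ftl1 and 76.2 of Gpx4, where the other 3 libraries had at most 535, 218 and 43.5. Neutrophil genes (Camp, Ngp, S100a8 and S100a9) summed to 1097 CPM in postnatal Cre- replicate 2, 2836 in BLZ-titled Littman oil replicate 3, 2415 in BLZ-titled Littman tamoxifen replicate 1 and 646 in UC2288 Cre- replicate 1. Their part in any result was not tested.

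Gpx3, a secreted glutathione peroxidase encoded at chr11:54902453-54910377 (GRCm38, plus strand), was low in every postnatal group except Cre+ Littman mice. The 5 Cre- libraries had 5.27, 5.09, 7.67, 7.99 and 8.78 CPM. The 5 Cre+ libraries had 52.1, 45.2, 41.1, 55.5 and 71.0 CPM. The lowest Cre+ library was thus above every Cre- library, and the fitted log2 fold change was 2.93 ± 0.358 (SE), from 17 to 31 counts per library against 2 or 3. Tamoxifen against oil in Jung mice is another contrast and showed no such step. Gpx3 was at 5.00, 2.80, 5.32, 2.55 and 7.97 CPM with oil and at 13.3, 0, 8.00 and 2.91 CPM with tamoxifen (log2 fold change 0.39 ± 0.646). The Littman Cre+ against Cre- change exceeded the Jung tamoxifen against oil change by 2.54 ± 0.810 on the log2 scale. These are unlike contrasts, and only the Littman one includes the loss of 1 Cx3cr1 copy, so their difference does not compare the lines.

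Selenop (chr15:3268547-3280508, plus strand) went the other way in the same Littman pups. Cre- libraries had 206, 206, 194, 237 and 146 CPM and Cre+ libraries 97.4, 152, 138, 155 and 112 CPM. The groups overlapped, because the lowest Cre- library lay below 2 of the Cre+ libraries, and the log2 fold change was -0.56 ± 0.143. Between Jung tamoxifen (181, 225, 184 and 195 CPM) and oil (182, 179, 104, 160 and 194 CPM) it was 0.25 ± 0.150. In bulk libraries, fewer cells of a type and less RNA per cell cannot be told apart. These levels in all groups are shown in the plot of Gpx3 and Selenop by library.

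**Figure D1:**
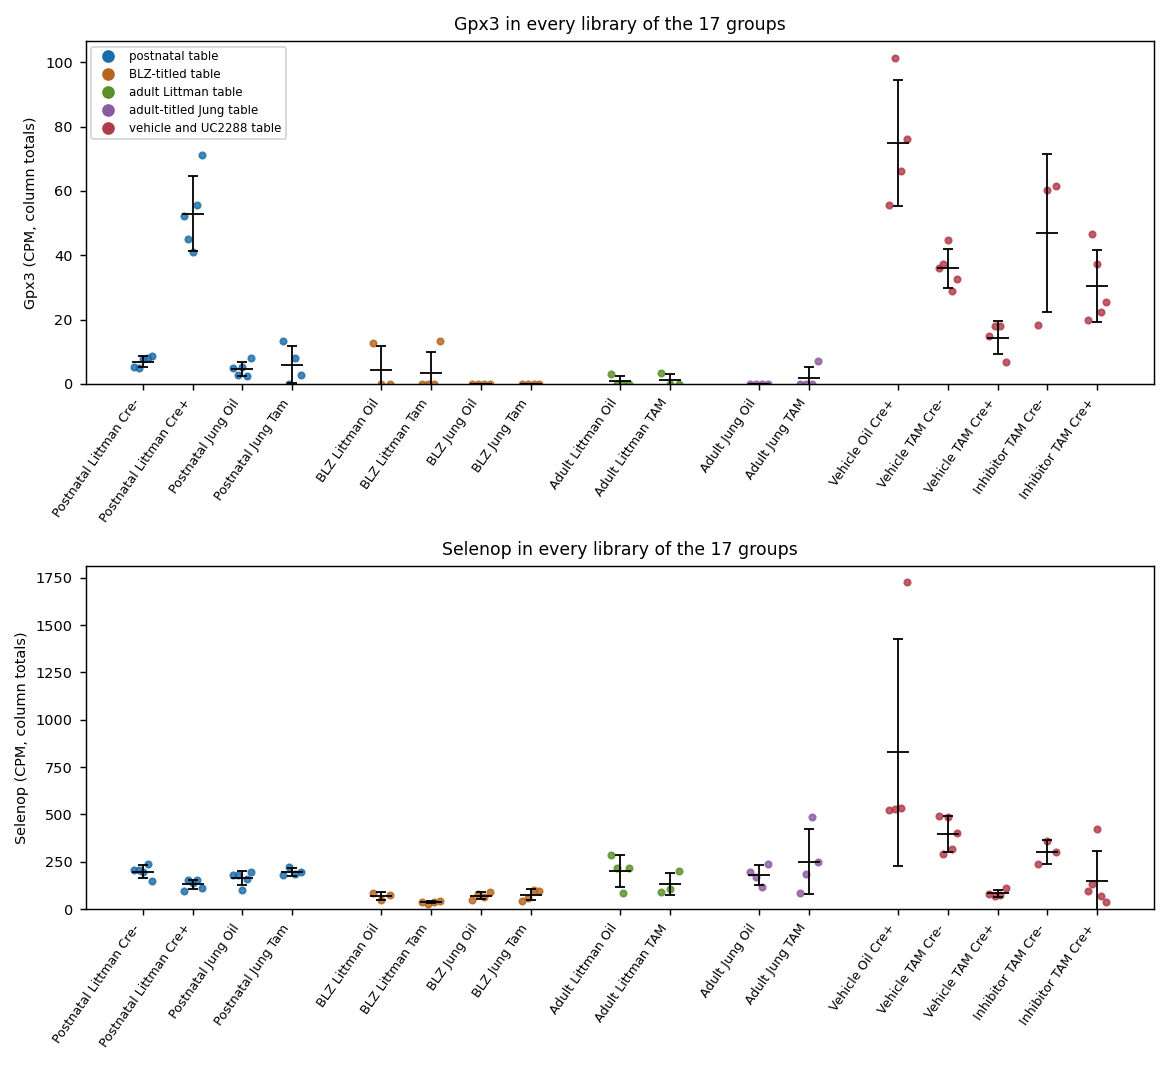
Gpx3 (top) and Selenop (bottom) in CPM from column totals, 1 point per library, grouped by title and coloured by count table. Black bars are the mean and SD; Gpx3 is high in postnatal Littman Cre+ libraries and in the vehicle and UC2288 table, where it is lowest in vehicle tamoxifen Cre+, and Selenop reaches 1725 CPM in 1 vehicle oil library.

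The sequences before the transcription starts of Gpx3 and Selenop, which moved apart, are printed with those of Prdx1 and Sod1, the only members with a motif match. Prdx1 and Sod1 rose in the same pups (below), as did Fth1 and Prdx5, whose windows held no match. The sequences are from RefSeq on GRCm38.p6, and the stretches shown are trimmed to bases outside annotated exons. Of the 10 genes, 9 had a window of 250 bases before a RefSeq start, and Hmox1 was the other gene. Each window was searched on both strands for TGACNNNGC, the core of the antioxidant response element that NRF2 binds, and for TGANTCA, the AP-1 motif. Of 32851 windows of that length in the RefSeq table, 10.2% held the first and 6.75% the second. Capitals mark matches in the strand shown, where a match on the other strand reads as the reverse complement. Prdx1 held 1 match to the first motif, 133 bases before its RefSeq start, and 2 AP-1 matches, 237 and 131 bases before it, of which the nearer lies inside the first motif's match. Sod1 held 1 match to the first motif, 56 bases before its start. No window of the other 7 genes held these letters, and a match is a description of the sequence only.
Gpx3, chr11:54902604-54902771, plus strand: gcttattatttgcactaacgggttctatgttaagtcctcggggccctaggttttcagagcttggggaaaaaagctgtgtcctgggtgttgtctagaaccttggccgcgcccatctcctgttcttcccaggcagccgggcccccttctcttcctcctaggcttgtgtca
Selenop, chr15:3270517-3270766, plus strand: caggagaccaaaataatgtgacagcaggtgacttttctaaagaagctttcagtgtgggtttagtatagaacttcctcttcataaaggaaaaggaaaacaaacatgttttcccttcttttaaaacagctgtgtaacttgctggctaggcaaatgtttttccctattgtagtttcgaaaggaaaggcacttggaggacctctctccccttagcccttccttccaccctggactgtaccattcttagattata
Prdx1, chr4:116685349-116685543, plus strand: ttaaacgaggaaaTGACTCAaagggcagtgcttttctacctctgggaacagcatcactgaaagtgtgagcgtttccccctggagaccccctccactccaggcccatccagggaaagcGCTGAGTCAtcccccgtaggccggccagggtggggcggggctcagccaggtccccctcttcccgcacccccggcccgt
Sod1, chr16:90220512-90220753, plus strand: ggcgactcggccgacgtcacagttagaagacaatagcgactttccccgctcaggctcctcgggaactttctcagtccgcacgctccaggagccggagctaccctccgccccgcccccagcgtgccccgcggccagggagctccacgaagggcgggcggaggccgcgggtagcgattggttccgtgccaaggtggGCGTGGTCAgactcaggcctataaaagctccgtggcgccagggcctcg

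Among the 8 tested genes, 4 rose in postnatal Littman Cre+ mice and none fell (7.80% of the 7076 tested genes were called at an edgeR adjusted p below 0.05, 4.56% higher and 3.24% lower, or 323 against 229 genes, which became 261 against 297 with column totals). All 8 estimates were above 0, with a median log2 fold change of 0.35 beside -0.0011 over all tested genes. Ferritin heavy chain changed most clearly. Fth1 (chr19:9980598-9985098, plus strand) was at 619, 509, 504, 527 and 518 CPM in Cre- and at 938, 718, 779, 764 and 944 CPM in Cre+, so the groups did not overlap. Its log2 fold change was 0.68 ± 0.0960 (edgeR adjusted p = 1.09e-06). Ftl1 (chr7:45457944-45459884, minus strand), the light chain, was at 75.1 ± 29.9 CPM in Cre+ and 64.0 ± 15.0 in Cre- (SD, n = 5 each), a log2 difference of 0.29 ± 0.214 that did not pass (adjusted p = 0.518).

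Sod1 (chr16:90220754-90226329, plus strand), the cytosolic copper-zinc superoxide dismutase that turns superoxide into hydrogen peroxide, also rose. Cre- libraries had 153, 199, 199, 154 and 135 CPM and Cre+ libraries 258, 229, 198, 280 and 321 CPM. Only the lowest Cre+ library lay within the Cre- range, and the log2 fold change was 0.66 ± 0.134 (edgeR adjusted p = 0.000576). The calls on Fth1 and Sod1 held under each of the 7 other settings and with each library left out in turn.

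The peroxiredoxins, thiol enzymes that reduce hydrogen peroxide without selenium, rose by less. Prdx1 (chr4:116685544-116700822, plus strand), which is mainly cytosolic, went from 187, 216, 202, 173 and 237 CPM in Cre- to 378, 194, 235, 242 and 307 CPM in Cre+ (log2 fold change 0.47 ± 0.136, edgeR adjusted p = 0.0203). The Cre+ libraries at 194 and 235 CPM lay within the Cre- range. Prdx5 (chr19:6906697-6910106, minus strand), found in mitochondria and peroxisomes, went from 261, 280, 194, 210 and 202 CPM to 326, 271, 300, 311 and 270 CPM, again with overlap. Its log2 fold change was 0.41 ± 0.113 (edgeR adjusted p = 0.0151). Both calls were lost with DESeq2 (adjusted p 0.0925 for Prdx1 and 0.0567 for Prdx5). Without Cre+ replicate 1, or without Cre- replicate 4, both were lost too: Prdx1 then had adjusted p 0.177 and 0.0768 and Prdx5 0.0572 and 0.0560. Prdx1 was also lost without Cre- replicate 1 (0.0562) and Cre+ replicate 5 (0.0791), and Prdx5 without Cre- replicate 3 (0.0705) and replicate 5 (0.0567).

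The remaining tested members did not pass in these pups. Gpx1 (chr9:108338903-108340343, plus strand), the cytosolic glutathione peroxidase, was at 360 ± 78.4 CPM in Cre+ and 303 ± 26.8 in Cre- (adjusted p = 0.160, and 0.0304 without Cre+ replicate 2, its lowest Cre+ library). Gpx4 (chr10:80047166-80056439, plus strand), which protects membrane lipids from peroxidation, was at 27.6 ± 7.86 and 24.9 ± 3.23 CPM (adjusted p = 0.801). Hmox1 (chr8:75093621-75100589, plus strand), the inducible heme oxygenase that frees iron from heme, was at 26.7 ± 8.86 and 27.0 ± 11.9 CPM (adjusted p = 0.962).

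**Figure D2:**
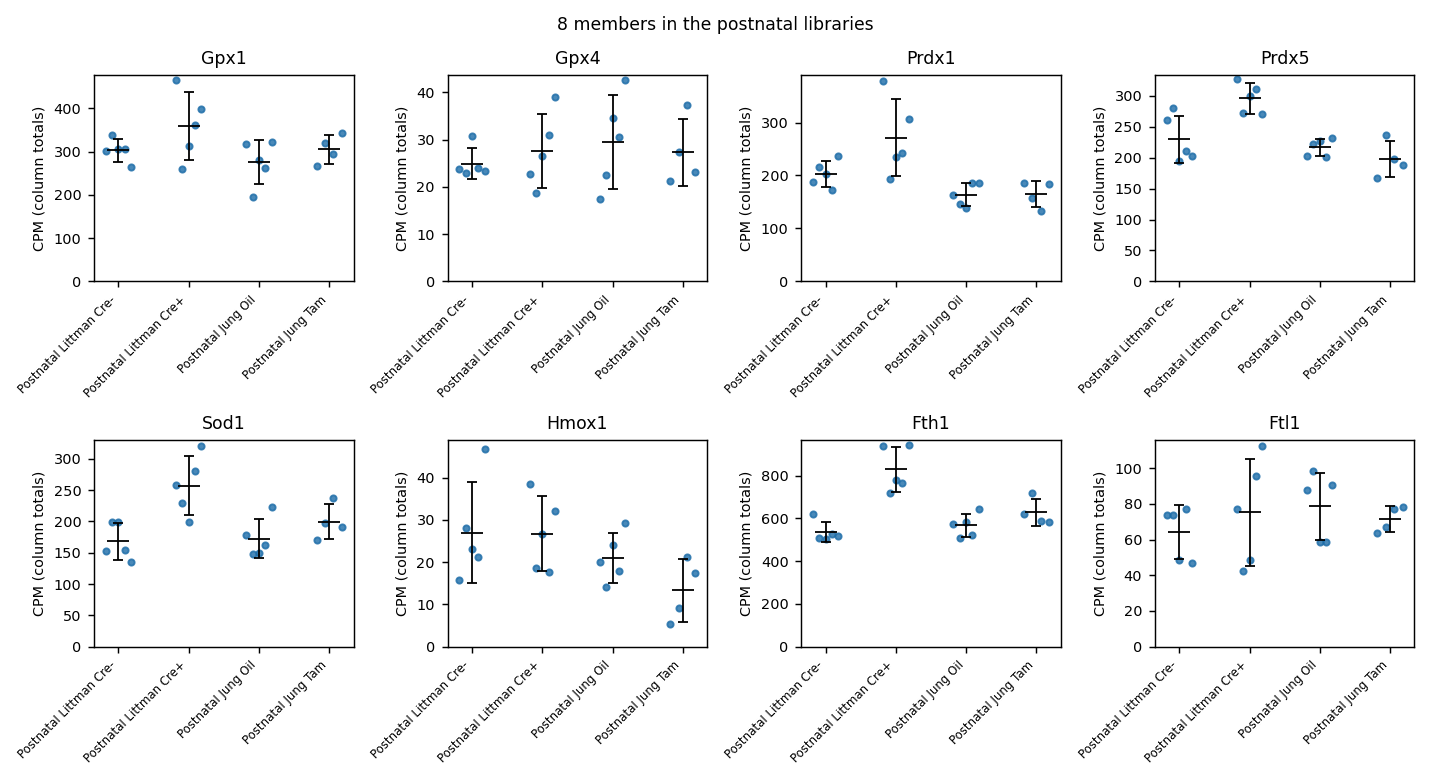
The 8 tested genes in the postnatal libraries, in CPM from column totals, 1 point per library with the mean and SD in black. Fth1 in Littman Cre+ libraries lies between 718 and 944 CPM, above every other postnatal library except 1 of Jung tamoxifen at 720.

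Tamoxifen in Jung pups called none of the 8 genes (0.0848% of tested genes were called, all higher). The estimates ran from -0.64 for Hmox1, at 13.3 ± 7.37 CPM with tamoxifen (n = 4) and 21.0 ± 5.84 with oil (n = 5), to 0.21 for Sod1, at 199 ± 28.0 and 172 ± 30.9 CPM. Fth1 was at 622, 720, 587 and 584 CPM with tamoxifen and 573, 510, 583, 522 and 646 CPM with oil (log2 fold change 0.15 ± 0.104, adjusted p = 0.930). This table had no Littman oil group, so a tamoxifen response could not be compared between the lines. The difference between the Littman Cre effect and the Jung tamoxifen effect was tested instead, and no tested member passed (0.353% of tested genes did, 0.254% higher and 0.0989% lower, or 18 against 7 genes, and 17 against 13 with column totals). In that contrast, which sets Cre+ against Cre- beside tamoxifen against oil, all 8 estimates were above 0. Fth1 came nearest, at 0.53 ± 0.142 (edgeR adjusted p = 0.0758), and passed with DESeq2 (adjusted p = 0.0190), without Cre- replicate 1 (0.0441) and without Littman Cre+ replicate 2 (0.0227). Between the control groups, Jung oil against Littman Cre-, none of the 8 was called (0.791% of tested genes were, 0.254% higher and 0.537% lower), and the estimates ran from -0.34 (Hmox1) to 0.28 (Ftl1).

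In the vehicle and UC2288 table, Gpx3 was lower, not higher, in Cre+ mice after tamoxifen. The 5 Cre- libraries had 36.0, 37.4, 44.8, 28.8 and 32.6 CPM and the 4 vehicle tamoxifen Cre+ libraries 14.8, 18.0, 18.0 and 6.89 CPM, from 5 to 10 against 1 to 5 counts. The groups did not overlap, and the log2 fold change was -1.41 ± 0.450. Cre+ mice given oil had the highest values, 55.6, 101, 66.3 and 76.2 CPM, so that tamoxifen against oil in Cre+ gave -2.36 ± 0.433, again without overlap. The Cre+ against Cre- contrast of Gpx3 thus had opposite signs in the 2 pup tables. That difference was not tested, since the tables were counted separately, and Cre- pups had 28.8 to 44.8 CPM here against 5.09 to 8.78 in the postnatal table.

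Selenop fell in the same comparison by more than in the postnatal table. It was at 492, 290, 488, 317 and 401 CPM in Cre- and at 77.8, 72.0, 75.6 and 110 CPM in Cre+ after tamoxifen, with no overlap (log2 fold change -2.46 ± 0.435). Oil-treated Cre+ mice had 521, 529, 535 and 1725 CPM. Tamoxifen against oil gave -3.45 ± 0.447, and -2.80 without the oil library at 1725 CPM (replicate 4). Gpx3 and Selenop therefore moved together in this table and apart in the postnatal one.

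A transcript of border macrophages moved with Selenop here. Mrc1, which encodes the CD206 that the sort selected against, was at 320 ± 60.3 CPM in vehicle Cre- and 296 ± 20.5 in vehicle oil Cre+, and at 111 ± 40.9 in vehicle tamoxifen Cre+. The 7 border macrophage genes listed (Mrc1, Pf4, Cbr2, F13a1, Ms4a7, Lyve1 and Cd163) summed to 271 to 474, 291 to 362 and 82.7 to 187 CPM in those groups. Most of each sum was Mrc1. Pf4 (17.3 ± 12.5, 14.3 ± 8.11 and 3.38 ± 6.75 CPM) and Cbr2 (6.36 ± 4.59, 5.07 ± 7.15 and 0 CPM) were also lowest in vehicle tamoxifen Cre+. Ms4a7 went the other way, at 0, 3.80 ± 4.85 and 31.7 ± 18.6 CPM, and F13a1 was at 0, 0 and 1.80 ± 3.60 CPM. Lyve1 and Cd163, the more defining of these genes, were at 0 in the vehicle oil and vehicle tamoxifen Cre+ groups, and Lyve1 was at 0 in Cre- as well. In the postnatal table the order of Mrc1 and of the sum was the reverse: Mrc1 was at 151 ± 58.8 CPM in Cre+ and 103 ± 14.4 in Cre-, and the list summed to 106 to 289 and 87.8 to 128 CPM. Ms4a7 was not reversed, at 4.05 ± 4.59 CPM in postnatal Cre+ and 0 in Cre-. Plac8 was also higher in postnatal Cre+, at 39.0 ± 20.1 CPM against 8.17 ± 5.99 without overlap (log2 fold change 2.30). It passed the count filter through postnatal Cre+, where it was high, so no p-value is given. The endothelial gene Pecam1 was lower there, at 9.10 ± 6.34 against 30.5 ± 7.19 CPM (-1.61, edgeR adjusted p = 0.00204), as was the astrocyte gene Slc1a3, at 122 ± 30.8 against 174 ± 34.9 CPM (-0.48, edgeR adjusted p = 0.0430). The endothelial genes Cldn5 and Ly6c1 had no count in any postnatal group. In vehicle tamoxifen Cre+ Slc1a3 was instead higher, at 81.0 ± 18.1 CPM against 29.9 ± 13.3 in Cre- (1.27, edgeR adjusted p = 0.0144). Oil-treated Cre+ mice had 23.7 ± 8.52 CPM of it (1.63, edgeR adjusted p = 0.00591). The part of the cell types of Plac8, Pecam1 and Slc1a3 in the member values of either table was not tested. The monocyte genes Ccr2, Ly6c2, Plac8 and Vcan summed to 96.5 to 278 CPM in vehicle tamoxifen Cre+ libraries and to at most 23.4 in Cre-, nearly all of it Plac8, with Ly6c2 at 0 in both groups, and Plac8 itself was at 187 ± 80.3 and 7.97 ± 8.96 CPM. Their part in the Gpx3 and Selenop values was not tested.

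The 2 ferritin chains moved apart in the vehicle groups. Of the 8 tested genes, 7 passed the count filter, and in Cre+ against Cre- after tamoxifen 1 was called higher and 2 lower (2 higher and none lower with column totals), where 14.3% of the 4953 tested genes were called higher and 12.9% lower (710 against 637, and 1027 against 393 with column totals). A share of 3 in 7 called is read beside the 27.2% called among all genes. Fth1 rose, from 805, 908, 806, 1033 and 1012 CPM in Cre- to 1918, 2490, 1509 and 1324 CPM in Cre+, with no overlap (log2 fold change 0.80 ± 0.235, edgeR adjusted p = 0.0104). The call was lost without Cre+ replicate 2 (adjusted p = 0.0726). Ftl1 fell, from 174, 178, 148, 225 and 131 CPM to 40.7, 140, 75.6 and 110 CPM, where 1 Cre+ library reached into the Cre- range (log2 fold change -1.11 ± 0.354, edgeR adjusted p = 0.0177). It was lost with DESeq2 (0.0927), with column totals (0.0507), without Cre+ replicate 1 (0.0872) and without Cre+ replicate 3 (0.0704). The pseudogene Ftl1-ps1 had up to 14 counts per library in this table, so some Ftl1 reads may be shared with it.

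Gpx1 fell slightly, from 438, 590, 484, 640 and 606 CPM in Cre- to 518, 423, 411 and 379 CPM in Cre+ (log2 fold change -0.53 ± 0.199, edgeR adjusted p = 0.0438). The groups overlapped, and the call did not hold under 5 of the 7 other settings, DESeq2 (0.0593) and the replicate block (0.0606) among them. It was also lost without each of Cre- replicates 2, 4 and 5 and Cre+ replicates 2, 3 and 4 (adjusted p 0.0734 to 0.127). Sod1 and Prdx1, which had risen in the postnatal pups, were at 279 ± 28.98 and 380 ± 67.9 CPM in Cre+ and at 317 ± 60.0 and 388 ± 65.4 CPM in Cre- (adjusted p 0.257 and 0.482, and the estimate for Prdx1, -0.21, became 0.015 with column totals). Prdx5 was at 352, 338, 194 and 165 CPM in Cre+, of which the upper 2 lie far above the 152 to 178 CPM of the Cre- libraries, and its log2 difference of 0.51 ± 0.240 did not pass (adjusted p = 0.113, and 0.0181 with column totals and 0.0379 with only these 2 groups in the fit). Hmox1 was at 59.2, 45.02, 57.6 and 48.3 CPM in Cre+ and 6.00, 14.0, 13.4, 34.6 and 60.6 CPM in Cre- (adjusted p = 0.203). Without Cre- replicate 5, the highest, it passed (log2 1.46, adjusted p = 0.0348). That library also held 387 CPM of erythroid genes in sum, where its group's median was 4.68, and their part in its Hmox1 was not tested.

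Against oil-treated Cre+ mice, Ftl1 and Gpx1 were lower with tamoxifen and no member was called higher (31.4% of tested genes were called, 16.1% higher and 15.3% lower, or 799 against 757 genes, and 992 against 565 with column totals). For the members, column totals gave 2 higher and 1 lower, and these 2 groups alone in the fit gave 2 higher and 3 lower. Oil libraries had 218, 188, 122 and 478 CPM of Ftl1, overlapping the Cre+ tamoxifen range by 1 library, and the log2 fold change was -1.60 ± 0.364 (edgeR adjusted p = 0.00104), and -1.10 without oil replicate 4 (adjusted p = 0.0205). This call held under the 7 other settings and without each library. Gpx1 was at 642, 551, 622 and 575 CPM with oil, above all 4 tamoxifen libraries (log2 fold change -0.59 ± 0.210, edgeR adjusted p = 0.0301). It was lost with column totals (0.0869), without the low-count filter (0.113) and without any of 5 libraries: oil replicates 1 and 3 and tamoxifen replicates 2, 3 and 4 (0.0598 to 0.0950). Fth1 was at 1204, 1087, 1107 and 1067 CPM with oil, below every tamoxifen library, but its log2 difference of 0.57 ± 0.249 had an adjusted p of 0.0763, and passed only with column totals (0.0191) or with these 2 groups alone in the fit (0.00646). Prdx5 was at 142, 123, 199 and 187 CPM with oil, below 2 of the 4 tamoxifen libraries, and did not pass (log2 0.57 ± 0.259, adjusted p = 0.0921). It passed with column totals (0.72, adjusted p = 0.0283), with these 2 groups alone (0.0425) and without tamoxifen replicate 3 (0.0476) or 4 (0.0483). The Sod1 difference of -0.51 (adjusted p = 0.107) passed with these 2 groups alone (0.0321). This comparison shares its tamoxifen libraries with the previous one. Gpx4, too low to be tested in this table, was at 17.5 ± 7.27 CPM with tamoxifen, 42.6 ± 24.0 with oil and 22.9 ± 8.38 in Cre-, and Gpx4-ps2 had 1 to 10 counts per library.

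**Figure D3:**
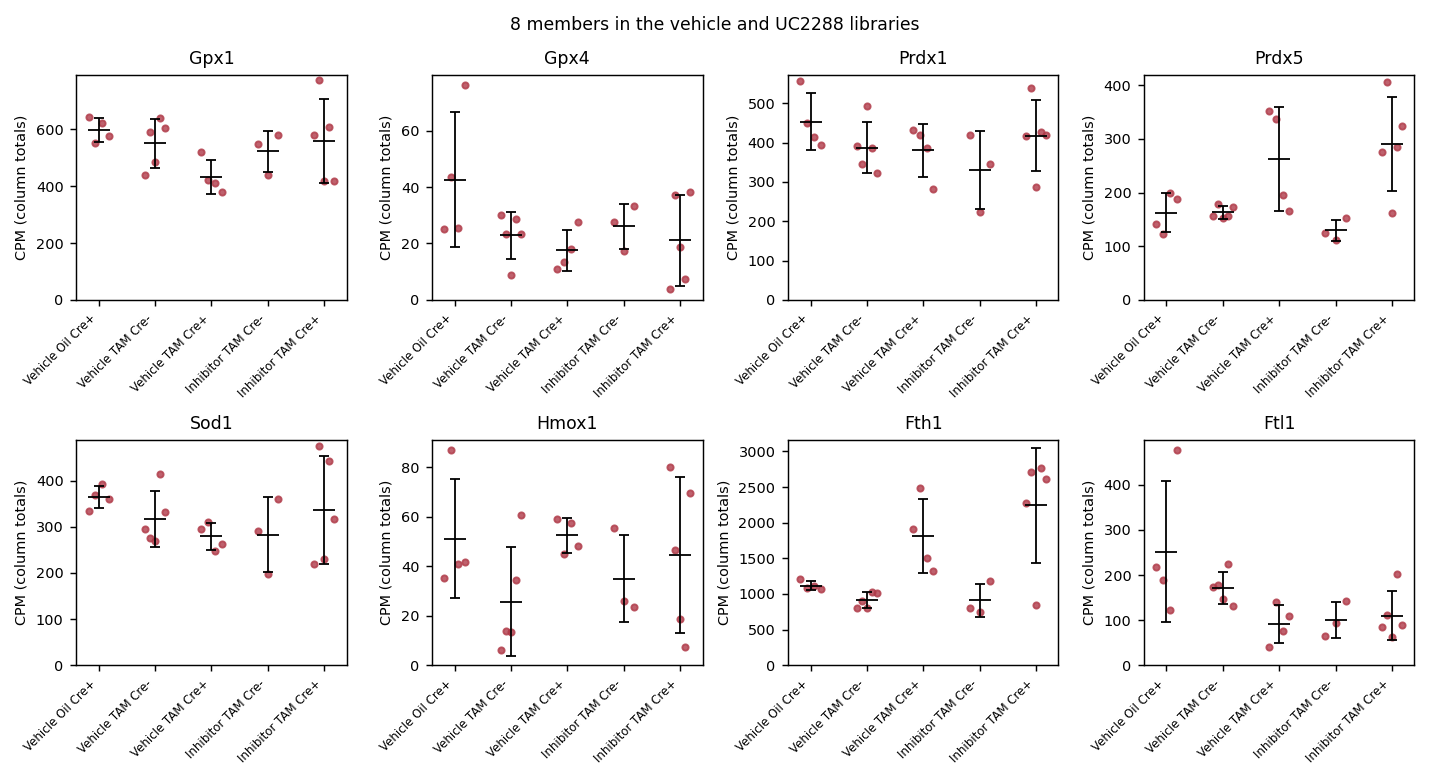
The 8 tested genes in the vehicle and UC2288 libraries (titled Vehicle and Inhibitor), in CPM from column totals, 1 point per library with the mean and SD in black. Fth1 is at 1324 CPM or more in all 4 vehicle tamoxifen Cre+ libraries, and 1 UC2288 Cre+ library (replicate 3) lies at 849 CPM while the other 4 have 2281 or more.

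Between UC2288 and vehicle, none of the 7 tested members was called in Cre+ mice after tamoxifen (0.727% of tested genes were, 0.646% higher and 0.0808% lower) or in Cre- mice (0.0202% were). Gpx3 was at 20.0, 46.5, 37.4, 22.5 and 25.4 CPM in UC2288 Cre+ libraries, each above the highest of the 4 vehicle Cre+ libraries at 18.0, a log2 difference of 1.06 ± 0.470 from 3 to 10 counts per library, and 0.97 without replicate 3. In Cre- mice, UC2288 libraries had 18.4, 60.3 and 61.6 CPM of Gpx3, on both sides of the vehicle range (log2 0.20 ± 0.425). Selenop was at 96.1, 130, 424, 67.4 and 38.1 CPM in UC2288 Cre+ libraries, and its log2 difference from vehicle of 0.96 ± 0.462 became 0.14 without replicate 3, the library that stands apart. Among the tested genes, the UC2288 effects in Cre+ ran from -0.095 (Hmox1) to 0.45 (Gpx1, at 559 ± 148 against 433 ± 60.0 CPM, adjusted p = 0.248). Prdx5 in UC2288 Cre- mice, at 124, 112 and 152 CPM, lay just below its vehicle range and was not called (log2 -0.42 ± 0.289, adjusted p = 0.632). The difference between the UC2288 effects in Cre+ and Cre- called no tested member (1.94% of tested genes were called, 0.949% higher and 0.989% lower, or 47 against 49 genes, and 21 against 96 with column totals). For Selenop, given without a test, that difference was 1.49 ± 0.63, and 0.67 without replicate 3.

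Under UC2288, the Cre+ against Cre- comparison called Fth1 and Prdx5 higher and no member lower (4.00% of tested genes were called, 3.51% higher and 0.485% lower). Fth1 was at 2281, 2713, 849, 2762 and 2609 CPM in Cre+ and 807, 749 and 1176 CPM in Cre-, so that 4 of 5 Cre+ libraries exceeded all Cre- libraries (log2 fold change 1.28 ± 0.270, edgeR adjusted p = 0.00182). Without replicate 3 the log2 fold change was 1.47 (adjusted p = 7.84e-06). Prdx5 was at 276, 405, 162, 284 and 324 CPM in Cre+, all above its Cre- libraries (log2 fold change 1.15 ± 0.282, edgeR adjusted p = 0.00999, and 1.27 without replicate 3). With only these 2 groups in the fit both calls were lost (adjusted p 0.0550 for Fth1 and 0.0681 for Prdx5). Prdx5 was also lost without Cre- replicate 1 (0.0904), Cre- replicate 2 (0.0850) or Cre+ replicate 2 (0.0567). Gpx3 differed by -0.55 ± 0.441 (-0.65 without replicate 3), with overlap. Selenop differed by -0.96 ± 0.441 (-1.79 without replicate 3). Its Cre- libraries had 240, 362 and 303 CPM, and of the 5 Cre+ libraries replicate 3 alone was not below them all. Mrc1 was also lower in Cre+, at 129 ± 86.8 CPM (median 82.3, highest library 281) against 440 ± 129 CPM. Plac8 was higher in Cre+, at 172 ± 78.1 against 3.07 ± 5.32 CPM (log2 fold change 5.33). It passed the count filter through the tamoxifen-treated Cre+ groups, where it was high, so no p-value is given. Ms4a7 was at 19.0 ± 12.9 CPM in Cre+ and 3.16 ± 5.47 in Cre-. Their part in these values was not tested.

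The fold changes of the 10 genes are set side by side in the plot of fold changes by comparison. Fth1 had a positive estimate in each of the 10 comparisons plotted, though that in adult-titled Jung mice (0.024) became -0.013 with column totals. In UC2288 against vehicle in Cre- mice, which is not plotted, it was -0.094 (0.020 with column totals). Selenop had a negative one in each Littman comparison except UC2288 against vehicle and a positive one in the 3 Jung comparisons. These comparisons share libraries within a table and are not independent.

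**Figure D4:**
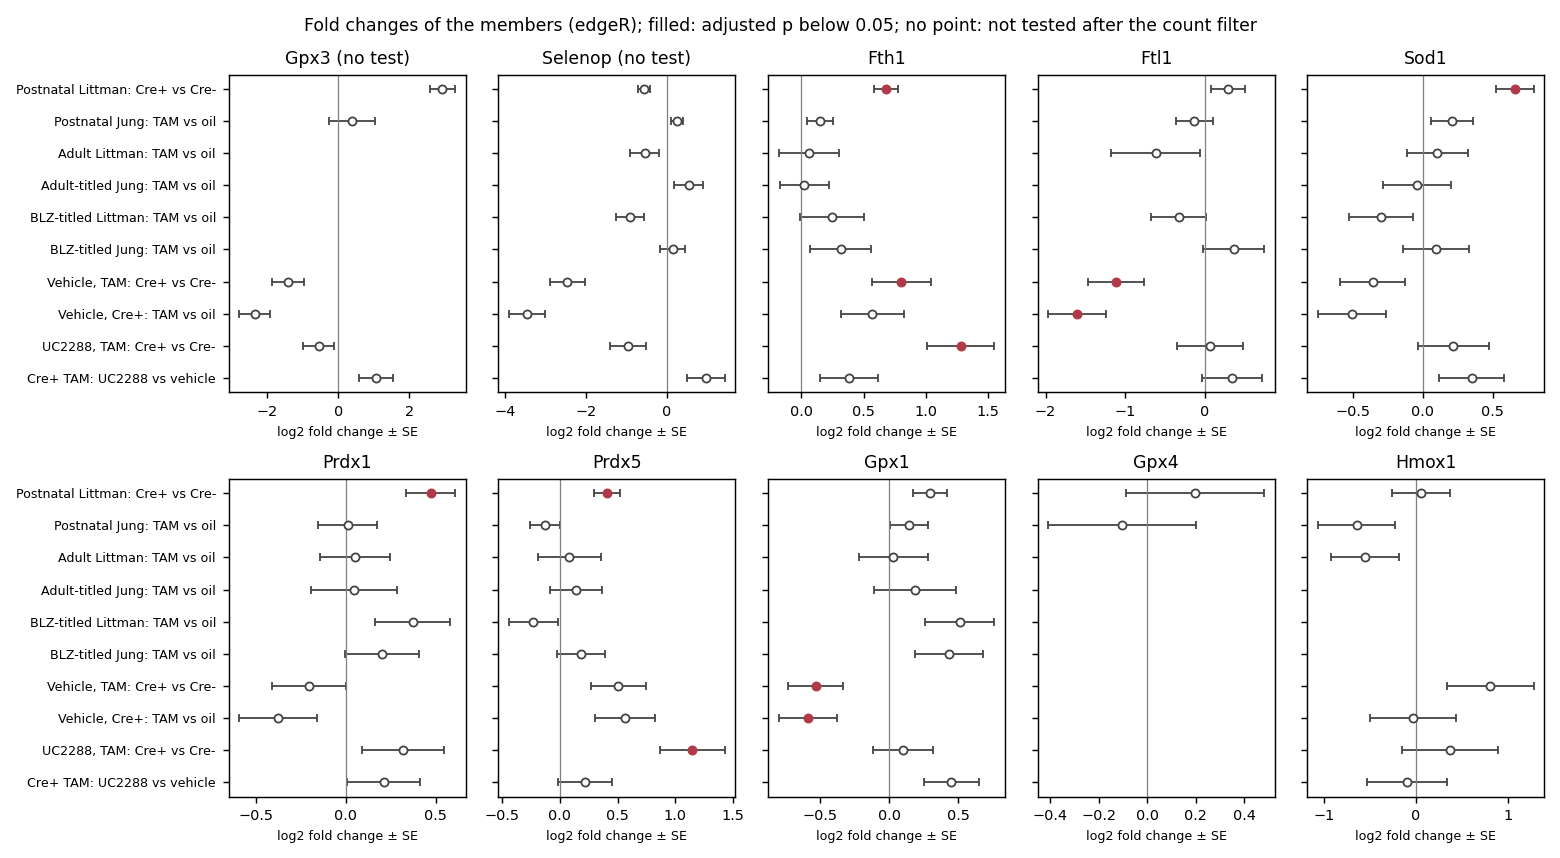
log2 fold change with SE (edgeR) of each gene in 10 comparisons. Filled points passed an adjusted p of 0.05 and open points did not, Gpx3 and Selenop were not tested, and a missing point means that the gene did not pass the count filter in that table; each panel has its own horizontal scale. Fth1 is filled in 3 comparisons and Ftl1, with negative values, in 2.

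In adult Littman mice none of the 7 members tested there passed (1 gene of 5512, 0.0181%, was called). Gpx3 was nearly absent, with 1 count in 1 of 4 oil libraries and 1 count in 1 of 3 tamoxifen libraries. Selenop was at 285, 218, 86.7 and 217 CPM with oil and 91.9, 108 and 201 CPM with tamoxifen, overlapping throughout (log2 -0.55 ± 0.348). Fth1 was at 1038 ± 33.8 CPM with tamoxifen and 1008 ± 342 with oil (log2 difference 0.06 ± 0.243, adjusted p = 0.998). Hmox1 was at 26.9 ± 4.37 and 41.1 ± 11.2 CPM (log2 -0.55 ± 0.373, adjusted p = 0.998). The adult-titled Jung mice were those labelled with BLZ945. Among them none of the 5 tested members passed (0% of 5111 tested genes were called by edgeR, and 0 by DESeq2 and by limma-voom, with 113 genes at an unadjusted edgeR p below 0.05), with estimates from -0.043 (Sod1) to 0.19 (Gpx1). There Gpx3 had no count in the 4 oil libraries, which allows a level of up to 2.56 CPM over the group, and 2 counts in 1 tamoxifen library. Selenop was at 196, 168, 116 and 241 CPM with oil and 83.9, 187, 486 and 250 CPM with tamoxifen (log2 0.53 ± 0.360).

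In the BLZ-titled table, tamoxifen called no tested member in either line (0.0581% of 5163 tested genes in Littman, 0% in Jung), nor did the difference between the lines (0%). The Littman mice there were labelled with BLZ945 and the Jung mice were not, and the Jung mice carried the Rosa26YFP allele. Line, label and allele therefore cannot be told apart in that difference. DESeq2 and limma-voom also called 0 genes in Jung and in the difference, where 287 and 417 genes had an unadjusted edgeR p below 0.05. Gpx3 had 3 counts in 1 of 3 Littman oil libraries and in 1 of 4 Littman tamoxifen libraries, and none in the 8 Jung libraries, which allows up to 3.77 CPM over the oil group and 3.96 over the tamoxifen group. Selenop was at 85.8, 48.1 and 75.2 CPM in Littman oil libraries and lower in all 4 tamoxifen libraries, at 38.6, 29.6, 40.1 and 44.1 CPM (log2 -0.91 ± 0.350). In Jung libraries it was at 47.5, 80.1, 62.9 and 89.1 CPM with oil and 42.6, 58.3, 101 and 97.6 CPM with tamoxifen (log2 0.15 ± 0.308). Gpx1 and Prdx1 in Littman mice also did not overlap between tamoxifen and oil, at 603 ± 107 against 412 ± 57.6 CPM and 308 ± 25.3 against 231 ± 22.3 CPM, but neither passed (adjusted p 0.698 and 0.720). The 3 Littman oil libraries were male and those with tamoxifen 1 male and 3 female, so sex and tamoxifen can hardly be told apart here, and with sex as a covariate no member was called. Littman tamoxifen replicate 4 had the highest Fth1 of the series, 5354 CPM, with 101 CPM of Hmox1, where the other 3 libraries of its group had 2996 to 4235 and 13.4 to 38.1 CPM.

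Oil-treated mice of the 2 lines differed in this table, where the Littman mice were labelled with BLZ945 and the Jung mice were not. Of the 6 tested members, 3 were higher in Littman and none lower (9.12% of tested genes were called, 6.72% higher and 2.40% lower, or 347 against 124 genes, which became 245 against 417 with column totals). Fth1 was at 3494, 3016 and 3363 CPM in Littman and 1847, 1313, 1909 and 843 CPM in Jung, without overlap (log2 fold change 1.37 ± 0.257, edgeR adjusted p = 0.000503). Sod1 was at 365, 271 and 403 CPM against 222, 200, 246 and 120 CPM (log2 fold change 1.03 ± 0.237, edgeR adjusted p = 0.00385), and Prdx5 at 373, 354 and 434 against 306, 227, 304 and 168 CPM (0.84 ± 0.217, edgeR adjusted p = 0.0103). The Fth1 and Sod1 calls held under every other setting and without each library. Prdx5 was lost with column totals (0.0535), without Jung oil replicate 2 (0.0527) and without Littman oil replicate 3 (0.0806). Ftl1 (107 ± 41.2 against 57.4 ± 29.2 CPM) had adjusted p = 0.0560, and Gpx1 (412 ± 57.6 against 291 ± 106 CPM) 0.0770. Gpx1 passed without Jung oil replicate 1 (0.0206) or 3 (0.0391), and Ftl1 without Jung oil replicate 3 (0.0265). Selenop was at 69.7 ± 19.5 and 69.9 ± 18.5 CPM, and its fitted log2 difference of 0.23 ± 0.325 was -0.039 with column totals. Littman oil replicate 2 also held choroid plexus genes (Ttr, Enpp2 and Folr1, 616 CPM in sum), and the part of these and of the neutrophil genes in replicate 3 was not tested. Line, BLZ945 label and Rosa26YFP allele cannot be told apart here, and sex, read from Xist and Y-linked transcripts, differed in part, with 3 male Littman and 3 male and 1 female Jung libraries. With sex as a covariate 3 members were again called.

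Outside the 10 genes, 5 lists of related genes were followed: other selenoproteins (16 genes), selenium handling (10), peroxide, thioredoxin and glutathione (26), iron and heme (25) and NRF2 control (8). The count filter left 52 of them in the postnatal table. Of those 52, 4 rose in postnatal Littman Cre+ mice and none fell, against 4.56% called higher overall. Prdx4 of the endoplasmic reticulum (log2 fold change 0.66, adjusted p = 0.0243) and mitochondrial Prdx3 (0.61, adjusted p = 0.0463) came from the peroxide, thioredoxin and glutathione list, where 2 of 15 tested rose. Slc11a1, a phagosomal metal transporter, was the 1 of 17 iron and heme genes (0.43, adjusted p = 0.0281). Nfe2l2, which encodes NRF2, was the 1 of 7 genes of NRF2 control (0.35, adjusted p = 0.0487). With DESeq2 these 4 had adjusted p from 0.110 to 0.261, and each was lost in 4 or more of the 10 fits that left out 1 library (Prdx4 in 4, Slc11a1 in 5, Prdx3 and Nfe2l2 in 8 each). None of the 8 other selenoprotein genes and none of the 5 selenium handling genes that were tested passed. No gene of these lists was called with tamoxifen in Jung pups, in either adult-titled table or in the BLZ-titled table. Of 40 tested between the BLZ-titled oil groups 1 was, beside 9.12% of all tested genes. It was Prdx4 (118 ± 17.5 CPM in Littman and 60.2 ± 12.6 in Jung, log2 fold change 1.19, adjusted p = 0.0125), and it was lost without Jung oil replicate 4 or Littman oil replicate 3 (adjusted p up to 0.0891).

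In vehicle pups after tamoxifen, 13 of 42 tested genes of these lists changed between Cre+ and Cre-, 5 higher and 8 lower, beside 27.2% called among all genes (14.3% higher and 12.9% lower). Among the other selenoprotein genes Selenow rose (124 ± 7.28 against 39.6 ± 14.8 CPM, log2 fold change 1.48, adjusted p = 0.00118). Selenoh (-1.17, adjusted p = 0.00169), Selenof (-0.80, adjusted p = 0.00648) and Selenok (-0.78, adjusted p = 0.00837) fell, out of 7 tested. Cat, the catalase that breaks down hydrogen peroxide (-1.47, adjusted p = 0.00867), and Prdx4 (-1.23, adjusted p = 0.000256) fell, out of 13 tested, so Prdx4, like Gpx3, had opposite signs in the 2 pup tables, a difference that was not tested. The Cat call was lost without Cre+ replicate 3 (adjusted p = 0.0690).

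Of the 13 iron and heme genes tested in the same comparison, 2 rose (Ireb2 and Cp) and 3 fell (Slc40a1, Trf and Hfe). These counts are read beside the 27.2% of all tested genes called there, 14.3% higher and 12.9% lower. Slc40a1, the iron exporter ferroportin, was at 27.6 ± 12.2 CPM in Cre+ and 73.5 ± 18.6 in Cre- (log2 fold change -1.54, adjusted p = 0.00513). Trf, transferrin, was at 191 ± 27.6 and 484 ± 40.4 CPM (-1.54, adjusted p = 4.27e-05), and Hfe, a regulator of iron uptake, at 60.2 ± 11.3 and 142 ± 29.2 CPM (-1.43, adjusted p = 0.000236). Ireb2, which encodes iron regulatory protein IRP2, a repressor of ferritin translation, rose (140 ± 23.9 against 47.4 ± 28.1 CPM, 1.37, adjusted p = 0.00159). Cp, the ferroxidase ceruloplasmin, had 37 counts over the 4 Cre+ libraries and 0 over the 5 Cre- libraries, at least 13.4-fold higher against a floor of 3 counts over the group. Under UC2288 it had 42 counts in Cre+ and 1 in Cre-, a ratio of 24.9 (95% interval, counting error only, 4.24 to 1008), and its edgeR call (adjusted p = 0.0266) was lost with DESeq2 (0.128) and without Cre- replicate 1 (0.172) or 2 (0.0985) or Cre+ replicate 1 (0.0680) or 5 (0.0502). Cp passed the count filter only through the tamoxifen-treated Cre+ groups, where it was high, so its calls are a description only. Keap1, the adaptor that marks NRF2 for degradation (1.27, adjusted p = 0.0174), and Mafg, a DNA-binding partner of NRF2 (0.70, adjusted p = 0.0405), rose, out of 7 tested, a share near the 27.2% called among all genes. Keap1 was at 52.0 ± 9.96 CPM in Cre+ and 17.9 ± 7.67 in Cre-. It did not pass the count filter with only these 2 groups in the fit. Keap1 was lost without the low-count filter (0.0793) and Mafg with DESeq2 (0.0547) and in 7 of the 9 fits that left out 1 library. Selenok was lost with column totals (0.0507).

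Against oil-treated Cre+ mice, 5 of these 42 genes were higher and 9 lower, beside 31.4% called among all genes (16.1% higher and 15.3% lower). They included Cat (-1.66, adjusted p = 0.00429), Trf (-1.58, adjusted p = 5.01e-05) and Hfe (-1.74, adjusted p = 2.64e-05), all lower with tamoxifen. Nfe2l2 was higher here (233 ± 52.3 against 110 ± 25.9 CPM, 0.98, adjusted p = 0.00467), with Keap1 (1.75, adjusted p = 0.00504) and Mafg (1.07, adjusted p = 0.00462). Keap1 again did not pass the count filter with only the compared groups in the fit. Selenow rose again under UC2288 in Cre+ against Cre- (177 ± 78.1 against 48.8 ± 20.0 CPM, log2 fold change 1.83, adjusted p = 0.000896). The difference between the UC2288 effects in Cre+ and Cre- called 1 of the 42 genes, Ireb2 (log2 -1.75, adjusted p = 0.0463), beside 1.94% of all genes. Ireb2 was at 75.6 ± 20.7 CPM in UC2288 Cre+ and 140 ± 23.9 in vehicle Cre+. This call was lost with the replicate block, with only the compared groups and in 13 of 17 fits that left out 1 library.

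Genes whose group means followed those of Gpx3 and Selenop were ranked by Pearson's r of log2 CPM over the 17 groups, after subtracting each table's mean. Groups of 1 table share its depth and processing, so r is a description only. For Gpx3, from 5293 genes with a mean of at least 20 CPM in every table, the 5 highest were Aldh2 (0.86), Lyz2 (0.84), Psap (0.84), Arsb (0.84) and Sdha (0.83). For Selenop, from 5292 genes, they were Scoc (0.97), Siglech (0.97), Vamp4 (0.96), Cd53 (0.95) and Abcg2 (0.95). Between Gpx3 and Selenop themselves r was 0.34.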

How the data were processed

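The deposited counts are whole numbers per gene, made by the authors on GRCm38, where the tools named per the submitters' processing notes are featureCounts, HISAT2, Trim Galore and UMI-tools, with versions not given in the sources used here. It is also not stated whether reads were collapsed by molecular identifier, so 1 count may be 1 read or 1 molecule. No count column was left out. Groups and replicate numbers came from sample titles.

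CPM was computed from column totals. Each table was fitted separately with edgeR 4.0.16 (R 4.3.3): genes filtered by filterByExpr by group, TMM scaling, a quasi-likelihood model holding all groups of the table, p-values adjusted by Benjamini-Hochberg for every gene tested there, and a call at an adjusted p below 0.05. Standard errors are the fold change divided by the square root of F. Every adjusted p in the text is from edgeR unless another tool is named, and the script was tested on simulated data. In postnatal Littman Cre+ against Cre-, 1.5-fold changes were recovered in 30% of simulated cases and 2-fold changes in 76%. Vehicle Cre+ against Cre- gave 5% and 38%, and the BLZ-titled oil groups 3% and 33%. Adult Littman gave 2% and 35%, and adult-titled Jung 9% and 44%. A gene that did not pass may therefore have changed by such amounts. After the filter 7076 genes were tested in the postnatal table, 5163 in the BLZ-titled, 4953 in the vehicle and UC2288, 5512 in the adult Littman and 5111 in the adult-titled Jung table, and 10, 7, 9, 8 and 6 of the 10 genes were among them. Gpx3 and Selenop were chosen for their changes in these data and got no test.

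Alternatives were DESeq2 1.42.0, limma-voom (limma 3.58.1), DESeq2-style size factors, column totals, no low-count filter, the replicate number as a block, only the compared groups in the fit, sex as a covariate and leaving out each library. The replicate number was not taken to pair libraries: correlations of deviations between same-numbered libraries ran from -0.36 to 0.34, and no comparison had every pair over 0.1. Adult-titled Jung tamoxifen against oil came nearest, with 3 of 4 pairs over 0.1 (-0.16 to 0.34). No 2 libraries of a group were identical, and counts within a group differed by more than sampling noise (chi-square per degree of freedom at least 1.09). Floors at 0 counts and the Cp interval cover counting error only.

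The 10 genes and the lists were chosen with earlier results of these data known. The genes named were the 10 members, Cx3cr1 and Cdkn1a as a check of the labels, up to 4 called genes of largest change per list and comparison, and the 5 genes most like Gpx3 and Selenop, with markers where they moved with a result. Gene positions are from GENCODE M21 on GRCm38.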

Additional observations from a re-analysis of the deposited data

Results flagged for a closer look

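In 10 of 137 combinations of a gene and a group of 4 or 5 libraries, 1 library lay apart from the rest of its group by Dixon's criterion. Its rate of about 1 in 20 by chance holds for normally distributed values and not for low counts, so the share flagged is a description only. In the vehicle and UC2288 table, Selenop was at 424.3 CPM in UC2288 Cre+ replicate 3 (others 38.1 to 130.3), and Fth1 in the same library was at 848.5 CPM (others 2281 to 2762). Selenop was at 1725 CPM in vehicle oil Cre+ replicate 4 (others 521.0 to 535.5) and at 110.3 CPM in vehicle tamoxifen Cre+ replicate 4 (others 72.0 to 77.8). Hmox1 was at 87.0 CPM in vehicle oil Cre+ replicate 2 (others 35.4 to 41.6). In postnatal Littman Cre- mice, Gpx4 was at 30.7 CPM in replicate 3 (others 22.9 to 24.0) and Fth1 at 619.3 CPM in replicate 1 (others 503.6 to 527.0). For Gpx3, the only library of its group with any count was BLZ-titled Littman tamoxifen replicate 4 (13.2 CPM), adult-titled Jung tamoxifen replicate 4 (7.04 CPM) and adult Littman oil replicate 1 (3.20 CPM), from 1 to 3 counts each. A group with counts in only 1 library always meets the criterion, so these Gpx3 flags carry no information beyond the low counts.

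Gpx3 differed in opposite directions between Cre+ and Cre- pups of the Littman line after tamoxifen, by 2.93 on the log2 scale in the postnatal table and by -1.41 among vehicle-treated pups, without overlap between the 2 groups in either case. Gpx3 was chosen for its change in these data, and in the postnatal table it passed the count filter only through Cre+. These values are therefore a description only, and the difference between the tables was not tested.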

How the results depend on the processing

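The number of tested members called kept within 1.5 times its reported value except as follows. DESeq2 called 2 in postnatal Littman Cre+ against Cre- (reported 4), 1 in the postnatal difference (0) and 1 in vehicle Cre+ against Cre- (3). Without the low-count filter 5 were called between the BLZ-titled oil groups (3) and 1 in vehicle Cre+ tamoxifen against oil (2). With only the compared groups in the fit 5 were called in the latter comparison and 0 in UC2288 Cre+ against Cre- (2). Leaving out 1 library gave 2 to 5 members in postnatal Littman, 0 to 1 in the postnatal difference, 2 to 5 between the BLZ-titled oil groups, 1 to 3 in vehicle Cre+ against Cre-, 1 to 2 in vehicle tamoxifen against oil, 1 to 2 in UC2288 Cre+ against Cre- and 0 in the rest. The causes were not tested. No estimate of a called gene changed sign. With the replicate number as a block, 4, 3, 2, 2 and 2 members were called in the 5 comparisons with calls and 0 elsewhere, and the Gpx1 call in vehicle Cre+ against Cre- was the only member call lost, while Cp in UC2288 Cre+ against Cre- (adjusted p = 0.120) and Ireb2 in the UC2288 difference (0.0825) were lost among the listed genes. No comparison had every same-numbered pair correlated over 0.1, though 3 of 4 pairs were in adult-titled Jung tamoxifen against oil, and partial pairing there was not tested.

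Over all genes, counts of calls moved by more than 1.5 times in several comparisons: postnatal Littman 552 against 365 with DESeq2, postnatal Jung tamoxifen 6 against 15 without the filter, 11 with the block and 12 with the compared groups only, the postnatal difference 25 against 45 with DESeq2 and 55 without the filter, and Jung oil against Littman Cre- 56 against 37 with DESeq2 and with limma-voom, 145 without the filter, 105 with the block and 116 with the compared groups only. In adult Littman they were 1 and 10 without the filter, 2 with the block and 0 with sex as a covariate, in adult-titled Jung 0 and 6, in the BLZ-titled difference 0 and 10, and in BLZ-titled Littman 3 and 44, beside 6 with column totals, 7 with the compared groups only and 1 with the block or sex as a covariate. For UC2288 against vehicle they were 36 in Cre+ against 176 with DESeq2, 132 without the filter, 5 with limma-voom, 21 with size factors, 15 with column totals and 2 with the compared groups only, and 1 in Cre- against 36 without the filter and 0 with limma-voom. For UC2288 Cre+ against Cre- they were 198 against 111 with the compared groups only, and for the UC2288 difference 96 against 178 with DESeq2, 179 without the filter, 58 with the block and 33 with the compared groups only. With column totals in place of TMM the median log2 fold change of all genes was -0.30 between the BLZ-titled oil groups (-0.045 with TMM), 0.21 in vehicle Cre+ against Cre- (-0.0074), 0.16 in vehicle tamoxifen against oil (0.0034), 0.12 for UC2288 in Cre- (-0.0076), 0.10 in the BLZ-titled difference (-0.0033) and -0.20 in the UC2288 difference (0.027). Gpx3, Gpx4 and Hmox1 rest on few counts in many libraries.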
